A study of Mus musculus with 10 samples.

Results

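The effect of stem cell factor (SCF) on mast cells that also received transforming growth factor β (TGF-β) was measured by RNA sequencing, by setting 4 libraries of SCF with TGF-β against 2 libraries of TGF-β alone. These 6 libraries, of 10 in the series, were chosen by treatment only. The cells were mast cells grown from the bone marrow of wild-type C57BL/6 mice (age label 6 to 8 weeks) and kept in interleukin 3 (IL-3) for 6 to 8 weeks, so every group, controls included, carried IL-3. The growth protocol gives 5 ng/mL IL-3 and the sample source 10 ng/mL. Stimulation lasted 72 h, a time the labels of IL-3 alone do not carry. TGF-β alone was given at 1 ng/mL (1 library, labelled replicate 2) and at 10 ng/mL (1 library, labelled replicate 1). SCF was combined with each of these doses in 2 libraries per dose. The SCF dose is given as 100 ng/mL for SCF alone and is not stated for the combinations. IL-3 alone (2 libraries) and SCF alone (2 libraries) are used here only to estimate the spread and to compare the effect of SCF with and without TGF-β. The labels do not state whether replicates are separate cultures or animals. The p-values therefore measure the spread between these libraries, which may be technical, and for TGF-β alone that spread was taken from the other groups.

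SCF is the ligand of KIT, a receptor tyrosine kinase that mast cells keep into maturity and that drives their growth and survival through the RAS to ERK and the PI3-kinase to AKT pathways. AKT holds the FOXO transcription factors, which switch on growth arrest and starvation genes, in an inactive state. TGF-β acts through SMAD transcription factors, slows the growth of many cells, and is known for turning on the chymases and the integrin αE of mucosal mast cells, the subtype of epithelia. The series title names a mucosal programme that SCF permits TGF-β to induce, and the comparison asks what SCF adds to TGF-β.

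The number of gene counts per library lay between 1237382 and 2323916, and both libraries of TGF-β alone (1295048 and 1237382) were below the 4 combination libraries (1628524 or more). Of all counted alignments, 55.6% and 45.7% were not uniquely aligned with TGF-β alone at 1 and 10 ng/mL, against 38.2% to 43.2% in the combinations. Loci that overlap ribosomal RNA genes and satellite repeats took 29.9% and 20.4% of gene counts with TGF-β alone and 15.7% to 17.4% in the combinations. All 10 mast cell markers were present in the 6 libraries, with a summed level of 48721 to 55765 CPM (counts scaled to a common library size) with TGF-β alone and 56312 to 69355 CPM in the combinations. Of the 7 macrophage or monocyte markers 1 was at 0, and their sum was 671 to 825 CPM with TGF-β alone and 172 to 266 CPM in the combinations, nearly all from Cx3cr1, a chemokine receptor gene. The 4 basophil markers summed to 473 to 483 and 638 to 732 CPM, mostly from Cd200r3. Neutrophil markers reached at most 1.54 CPM with 5 of 7 at 0, and eosinophil markers 5.4 to 10.5 CPM with TGF-β alone and at most 1.85 CPM in the combinations. Erythroid or platelet markers summed to 1201 to 1628 CPM with TGF-β alone and 1492 to 1784 CPM in the combinations, nearly all from Itga2b, an integrin gene. The part of these differences in the results was not tested, except that calls were recomputed without the ribosomal RNA and satellite loci. In bulk libraries, more cells of a kind and more RNA per cell cannot be told apart.

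SCF changed the level of 2780 of 11247 genes tested (24.7%), 1500 upwards (13.3%) and 1280 downwards (11.4%), at an adjusted p under 0.05 in edgeR's quasi-likelihood test with Benjamini-Hochberg adjustment. Genes past this threshold are those said below to have risen, fallen or changed. Of the 2780, 1340 differed by 2-fold or more, 703 upwards and 637 downwards. The median log2 fold change over all genes tested was -0.01. The scaling assumes that most genes do not change, so this value is no check of it. All 4 combination libraries were above both TGF-β alone libraries for 2652 genes tested (23.6%) and below both for 2674 (23.8%), and 2731 of the 2780 changed genes were among them. The number of changed genes depended on the 2 control libraries: it was 1278 without the library of 1 ng/mL TGF-β alone and 1802 without that of 10 ng/mL. With 1 control left out, here and below, the combinations of both doses were set against the remaining control. Such fits therefore also carry any difference between the TGF-β doses. Without ribosomal RNA and satellite loci the number of changed genes was 2785. DESeq2's Wald test gave 1518, all of them among the 2780, and limma-voom 2540 with more falls than rises (1204 upwards and 1336 downwards).

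**Figure D1:**
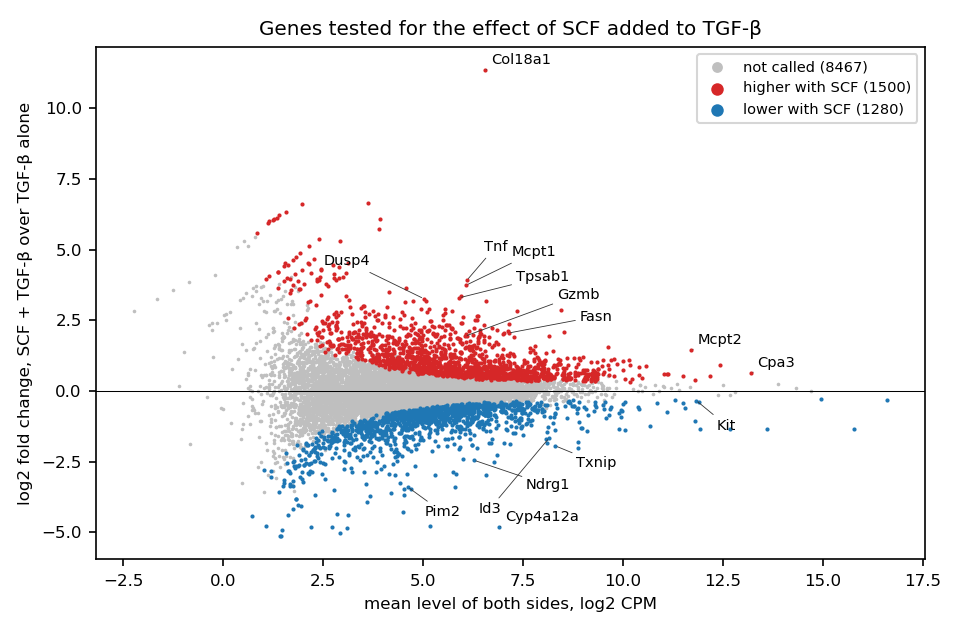
Each point is 1 of the 11247 genes tested, by its mean level over both sides (log2 CPM, horizontal) and the fitted log2 fold change of SCF with TGF-β over TGF-β alone (vertical); red points (1500) rose, blue points (1280) fell and grey points did not pass the test. Cyp4a12a lies at -4.80 and Tnf at 3.92, while the fitted value of Col18a1, with 0 counts in TGF-β alone, depends on the prior count and is no measured size.

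The chymases, serine proteases stored in mast cell granules, gave the mucosal marker genes Mcpt1 and Mcpt2. The level of Mcpt1 (ENSMUSG00000022227, chr14:56017971-56020384 on GRCm38, + strand) was 2.55 CPM with 1 ng/mL and 27.2 CPM with 10 ng/mL TGF-β alone, and 90.1, 63.5, 212 and 115 CPM in the combinations, in the order 1 ng/mL replicates 1 and 2, then 10 ng/mL replicates 1 and 2. All 4 combination libraries were above both controls. Mcpt1 rose by 3.74 ± 0.38 on the log2 scale (SE of the fit, 4 libraries against 2; adjusted p = 7.27e-06), and by 2.05 without the library of 1 ng/mL TGF-β alone. At 1 ng/mL the control had 3 counts of Mcpt1 and the ratio of pooled counts was 31.1 (95% counting interval 10.5 to 152, which covers counting error only). At 10 ng/mL it rose by 2.59 ± 0.40 (adjusted p = 0.00101).

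Mcpt2 (ENSMUSG00000022226, chr14:56042041-56044642, + strand) differed between the controls themselves, with 604 CPM at 1 ng/mL and 3979 CPM at 10 ng/mL TGF-β alone. The combinations held 3779, 2874, 6719 and 4049.6 CPM. Both 1 ng/mL combination libraries were above their control, while the lower of the 10 ng/mL combination libraries stood next to its own control. Over both doses Mcpt2 rose by 1.45 ± 0.17 on the log2 scale (adjusted p = 1.86e-05), a call that rested on the 1 ng/mL control. Without this control Mcpt2 differed by 0.09, with both combination doses set against 10 ng/mL TGF-β alone. At 1 ng/mL it rose by 2.46 ± 0.26 (adjusted p = 2.75e-05), and at 10 ng/mL the difference was 0.44 ± 0.23 (adjusted p = 0.254). The latter passed in 3 alternatives, among them without replicate 2 of SCF with 10 ng/mL (0.76, adjusted p = 0.0472). The difference between these effects, -2.02 ± 0.33, did not pass the test over all genes (adjusted p = 0.111), although it did with a replicate block and in 3 other alternatives.

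Of the mucosal integrin genes Itgae gave no call and Itgb7 fell. Itgae, which encodes the αE chain that binds epithelial E-cadherin, was at 18.7 and 45.1 CPM with TGF-β alone and at 28.2, 26.7, 114 and 40.7 CPM in the combinations, a spread of the groups that overlapped (0.67 ± 0.37, adjusted p = 0.201). It passed the test without replicate 2 of SCF with 10 ng/mL (0.95, adjusted p = 0.021). Itgb7, the partner β chain, was at 824 CPM with 1 ng/mL and 348 CPM with 10 ng/mL TGF-β alone, and at 346, 328, 375 and 371 CPM in the combinations. It fell by 0.59 ± 0.12 on the log2 scale (adjusted p = 0.00191), but the combinations matched the level of the 10 ng/mL control. Within the doses the value was -1.29 at 1 ng/mL and 0.10 at 10 ng/mL. Without the 1 ng/mL control, with both combination doses set against 10 ng/mL TGF-β alone, the value was 0.027. Of the 5 mucosal genes listed 4 were tested; the fifth, Mcpt9, was too low.

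The proteases shared with, or typical of, connective tissue mast cells rose in part. Tpsab1, a tryptase (ENSMUSG00000024173, chr17:25343245-25345562, - strand), was at 17.0 and 6.99 CPM with TGF-β alone and at 95.6, 104, 121 and 112 CPM in the combinations, and rose by 3.30 ± 0.27 (adjusted p = 5.36e-07). Cpa3, the mast cell carboxypeptidase, rose by 0.64 ± 0.10 (adjusted p = 0.000282) from 7174 and 7514 CPM to between 10102 and 13730.1 CPM. These levels stayed below IL-3 alone (15869.5 and 15241 CPM) and SCF alone (26737 and 23525 CPM). Mcpt4, a further chymase, was low throughout, at 5.09 and 7.77 CPM against 13.4 to 26.6 CPM, and rose by 1.67 ± 0.45 (adjusted p = 0.0121; 0.127 without 1 ng/mL TGF-β alone). Of the abundant proteases Cma1 and Tpsb2 gave no call. Cma1, the chymase mMCP-5, held 18619.5 and 20426 CPM against 18594 to 23654 CPM (0.11 ± 0.12, adjusted p = 0.539). Tpsb2, the tryptase mMCP-6, held 14165 and 13172 CPM against 14686 to 17879.8 CPM (0.24 ± 0.11, adjusted p = 0.136). Mrgprb2, the receptor by which connective tissue mast cells respond to cationic peptides, fell by 2.66 ± 0.34 (adjusted p = 3.23e-05), from 59.4 and 38.1 CPM to between 3.56 and 10.1 CPM. In the connective tissue list 4 of 12 tested genes rose and 1 fell, beside 13.3% and 11.4% of all genes tested. The rises were Tpsab1, Cpa3, Mcpt4 and Ctsg, the cathepsin G gene, and the list had a median log2 fold change of 0.28. Left-out libraries gave 3 to 5 rises and 1 or 2 falls. Reads shared between the near-identical chymase or tryptase copies were not counted where they aligned to more than 1 place, so the split within these families is uncertain.

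Gzmb, granzyme B, is a serine protease of the same chromosome 14 cluster. Its level was 30.5 and 19.4 CPM with 1 and 10 ng/mL TGF-β alone, 149 and 172 CPM with SCF at 1 ng/mL, and 43.3 and 67.3 CPM with SCF at 10 ng/mL. All combination libraries were above both controls, and those of the lower TGF-β dose were the highest of these. Every combination library stayed far below IL-3 alone (1193 and 730 CPM) and SCF alone (1693 and 1832 CPM). Gzmb rose by 1.94 ± 0.27 (adjusted p = 6.54e-05), and the effect at 10 minus that at 1 ng/mL was -0.89 ± 0.57 (adjusted p = 0.917).

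**Figure D2:**
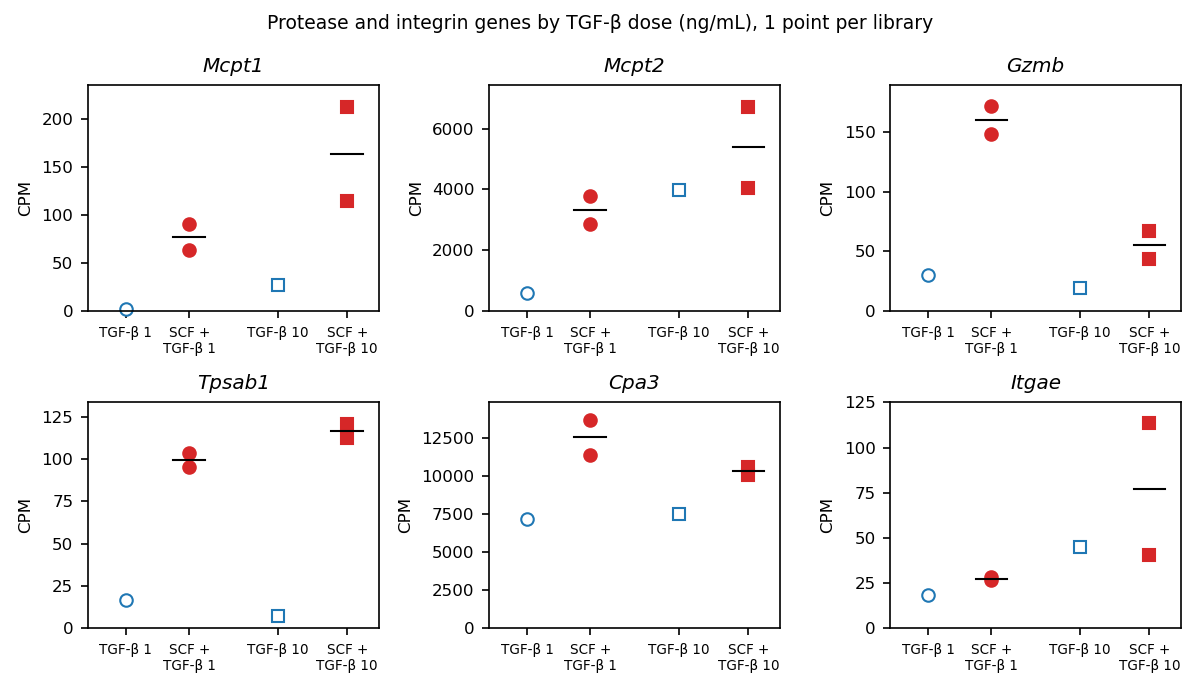
Level in CPM (vertical, linear from 0) of 5 protease genes and the integrin gene Itgae in the 6 libraries, by TGF-β dose in ng/mL; open blue marks are TGF-β alone (1 library per dose), filled red marks SCF with TGF-β (2 libraries per dose), and black bars their mean. SCF raised Mcpt2 from 604 CPM to 3779 and 2874 CPM at 1 ng/mL, whereas at 10 ng/mL the control already held 3979 CPM.

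Among genes of mast cell identity the IgE receptor and its lineage factors gave no call. Fcer1a, the IgE-binding chain, was at 6900.0 and 6712 CPM against 5487 to 7168 CPM (-0.13 ± 0.10, adjusted p = 0.353). Kit itself was at 4454 and 3677 CPM with TGF-β alone and at 3172, 3249, 3092 and 3299 CPM in the combinations, all below both controls. It fell by 0.34 ± 0.10 on the log2 scale (adjusted p = 0.0216), with 4 of the leave-one-out fits giving an adjusted p between 0.0603 and 0.339. Lat, the adaptor that relays IgE receptor signals, rose by 0.97 ± 0.14 (adjusted p = 0.000119) from 244 and 208 CPM to between 398 and 489.6 CPM. Rab27b, a GTPase of granule release, rose by 0.66 ± 0.13 (adjusted p = 0.00122), and Cd9, a tetraspanin, by 0.89 ± 0.22 (adjusted p = 0.00598; 0.226 without 10 ng/mL TGF-β alone). These 3 were the rises among 17 tested genes of the list, Kit was the only fall, and the median was 0.08. Such counts are near the background of 13.3% rising and 11.4% falling among all genes tested. Left-out libraries gave 2 or 3 rises and 0 to 2 falls.

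The gene with the clearest on and off pattern was Col18a1 (ENSMUSG00000001435, chr10:77052178-77166548, - strand), which encodes the α1 chain of collagen XVIII, the source of endostatin. It had 0 counts in both libraries of TGF-β alone and 133, 201, 185 and 224 CPM in the combinations, at least 149.9-fold higher against 3 counts over the control group. IL-3 alone gave 0 and 0.702 CPM and SCF alone 12.5 and 27.1 CPM. Arl11, a small GTPase gene, had 3 counts over the controls (2.55 and 0 CPM) and 29.5, 26.7, 31.7 and 27.7 CPM in the combinations, a ratio of pooled counts of 24.0 (95% counting interval 8.10 to 117).

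The other large rises included a cytokine, a phosphatase and several mitotic genes. Tnf (chr17:35199381-35202007, - strand), the inflammatory cytokine TNF, was at 4.24 and 16.3 CPM with TGF-β alone and at 140.2, 111, 143 and 112 CPM in the combinations. All 4 were also above IL-3 alone (43.5 and 23.9 CPM), and the rise was 3.92 ± 0.35 on the log2 scale (adjusted p = 1.29e-06). Psat1, an enzyme of serine synthesis, rose by 3.63 ± 0.49 (adjusted p = 5.44e-05) from 5.09 and 2.33 CPM to between 31.2 and 57.6 CPM. Slco2b1, an organic anion transporter, rose by 3.35 ± 0.30 (adjusted p = 1.26e-06) from 12.7 and 9.33 CPM to between 96.1 and 132 CPM, and S100a6, a calcium-binding protein gene, by 3.17 ± 0.38 (adjusted p = 1.89e-05) from 35.6 and 9.33 CPM to between 103 and 227 CPM. Together with Col18a1, Arl11, Mcpt1, Tpsab1, Dusp4 and the mitotic genes Kif2c, Hmmr and Bub1, these are the 12 largest rises among genes with at least 20 CPM on 1 side and no overlap.

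**Figure D3:**
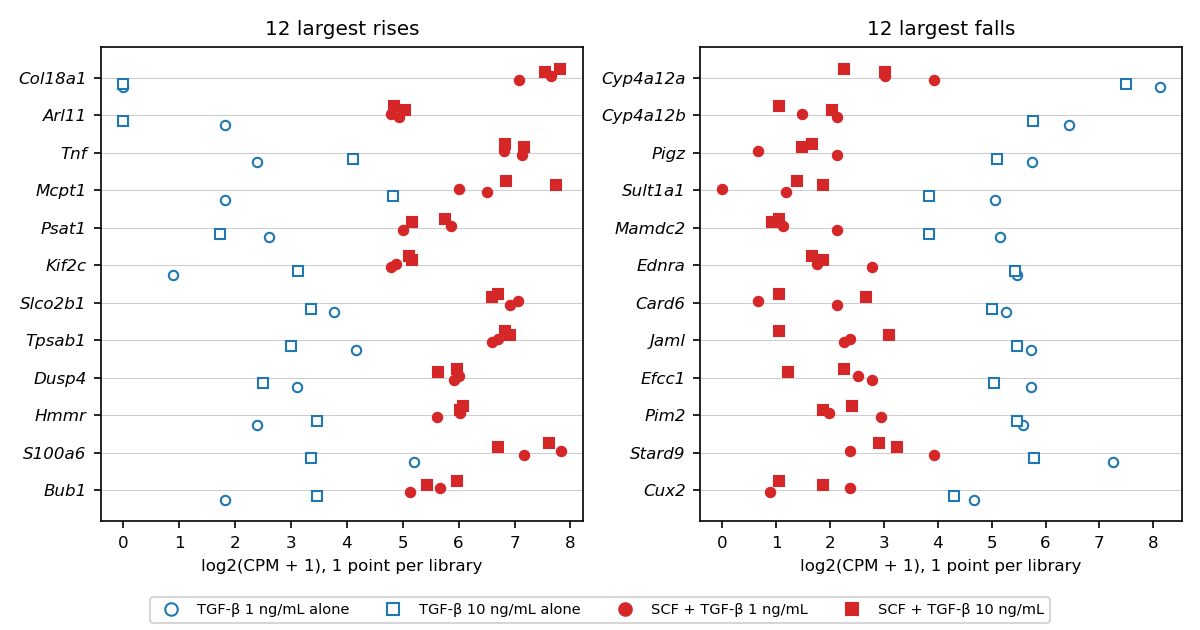
Level of the 12 genes with the largest rises (left) and the 12 with the largest falls (right), as log2(CPM + 1) on the horizontal axis, 1 mark per library; open blue marks are TGF-β alone and filled red marks SCF with TGF-β, circles at 1 and squares at 10 ng/mL. The groups do not overlap for any of these genes, which the choice of genes required.

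The largest falls were led by Cyp4a12a (ENSMUSG00000066071, chr4:115299046-115332815, + strand), a fatty acid ω-hydroxylase. It was at 278 and 179 CPM with TGF-β alone and at 14.3, 7.12, 7.15 and 3.80 CPM in the combinations, a fall of 4.80 ± 0.28 on the log2 scale (adjusted p = 5.13e-08). Its close copy Cyp4a12b gave -4.76 ± 0.31 (adjusted p = 7.71e-08), and reads that fit both copies could not be assigned. Pigz, an enzyme of GPI anchor synthesis, fell by 4.29 ± 0.37 (adjusted p = 9.59e-07) from 52.6 and 33.4 CPM to at most 3.37 CPM. Ednra, the endothelin A receptor, fell by 3.67 ± 0.38 (adjusted p = 5.76e-06), from 43.3 and 42.0 CPM to at most 5.90 CPM. Sult1a1, a phenol sulfotransferase, fell by 3.94 ± 0.82 (adjusted p = 0.00208; 0.0588 without 1 ng/mL TGF-β alone). The others of the 12 were Mamdc2, Card6, Jaml, Efcc1, Pim2, Stard9 and Cux2, at -3.73 to -3.30. Cux2, a homeobox gene, was at 24.6 and 18.6 CPM with TGF-β alone, 0.842 to 4.15 CPM in the combinations, 2.07 and 5.61 CPM with IL-3 alone and at 0 counts with SCF alone.

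Genes of ERK feedback, downstream of KIT, changed in both directions. Dusp4 (chr8:34807297-34819894, + strand), a phosphatase that switches ERK off, was at 7.64 and 4.66 CPM with TGF-β alone and at 59.8, 63.5, 48.7 and 61.4 CPM in the combinations, and rose by 3.27 ± 0.28 (adjusted p = 7.34e-07). Etv5, an ETS factor induced by ERK, rose by 2.62 ± 0.33 (adjusted p = 2.89e-05) from 8.48 and 3.11 CPM to between 29.5 and 34.9 CPM. Dusp6, Rgs1 and Spred1 rose by 0.62 ± 0.17, 0.49 ± 0.17 and 0.79 ± 0.19. Errfi1, an inhibitor of the EGF receptor family, fell by 1.80 ± 0.33 (adjusted p = 0.000908), Dusp7 by 1.41 ± 0.37 and Ier3 by 0.45 ± 0.13. These were the 5 rises and 3 falls among 13 tested genes of ERK feedback, beside 13.3% and 11.4% of all genes tested. The median was 0.48. Without either control library 3 rose, and 1 or 2 fell.

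The immediate early genes, which respond within minutes to growth factors, gave 3 rises and 1 fall among 16 tested, a median of 0.13, a count near the background of 24.7% called either way. Myc, the growth-promoting transcription factor, was at 92.5 and 94.8 CPM with TGF-β alone and 189.9, 181, 199.8 and 191 CPM in the combinations, 1.02 ± 0.16 higher on the log2 scale (adjusted p = 0.000211). The combination libraries kept close together and stood clear of both controls. Fosl1 had 0 counts in the controls and 38 in the combinations, at least 3.84-fold higher against 3 counts over the group, and Klf2 rose by 1.62 ± 0.56 (adjusted p = 0.0454). Junb fell by 0.92 ± 0.25 (adjusted p = 0.0118; 0.0823 without 10 ng/mL TGF-β alone). Fos gave no call (-0.62 ± 0.47, adjusted p = 0.363) and was higher in libraries labelled replicate 1 than replicate 2 in each group of 2, for example 176 against 55.2 CPM with SCF and 1 ng/mL. Of the rises and the fall, 1 rise (Myc) held in every left-out fit: Fosl1 lost its call in 4 of them and Klf2 in 5.

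In KIT's own signalling chain 2 of 23 tested genes rose and 4 fell, with a median of -0.17, beside 13.3% and 11.4% of all genes tested, so the count is near the background. Rasgrp4, a mast cell activator of RAS, was at 115 and 121 CPM with TGF-β alone and at 32.8, 30.9, 31.7 and 30.4 CPM in the combinations. The 4 combination libraries differed by less than 3 CPM, and the fall of 1.91 ± 0.14 (adjusted p = 2.98e-07) was the largest of the list. The adaptor Dok1 fell by 0.83 ± 0.19 (adjusted p = 0.00407), the ubiquitin ligase gene Cblb by 0.82 ± 0.22 (adjusted p = 0.0125; 0.0764 and 0.0607 without the 1 and the 10 ng/mL control), and Kit as given above. The kinase Lyn (0.43 ± 0.13, adjusted p = 0.0194) and the KIT inhibitor Sh2b3 (0.69 ± 0.15, adjusted p = 0.00279) rose. Without the 1 ng/mL control 1 gene rose and 1, Rasgrp4, fell; without the 10 ng/mL control none rose and 4 fell, Cblb not among them.

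Among targets of STAT5, the factor that IL-3 activates, Pim2, Il2ra and Pim1 fell. Pim2 (chrX:7878262-7883432, + strand), a survival kinase, was at 46.7 and 43.5 CPM with TGF-β alone and at 6.74, 2.97, 2.68 and 4.34 CPM in the combinations, a fall of 3.40 ± 0.34 (adjusted p = 4.20e-06). Il2ra, the interleukin 2 receptor α chain, fell by 2.02 ± 0.30 (adjusted p = 0.000131) from 27.2 and 21.8 CPM to between 3.57 and 7.58 CPM. Pim1, a kinase related to Pim2, fell by 1.17 ± 0.18 (adjusted p = 0.00021). The STAT5 targets Cish (-0.01 ± 0.12, adjusted p = 0.965) and Socs2 (-0.13 ± 0.20, adjusted p = 0.661) gave no call. Among survival genes the 2 cell death genes Bcl2l11 (BIM, -1.89 ± 0.40, adjusted p = 0.00263) and Bmf (-2.59 ± 0.85, adjusted p = 0.0337) fell, and Bcl2l1 (BCL-XL), which protects cells, rose by 0.81 ± 0.16 (adjusted p = 0.00146). Of 17 tested genes of the list 2 rose (Bcl2l1 and Socs3) and 6 fell (with Bcl6), beside 13.3% and 11.4% of all genes tested. The median was -0.13. Left-out fits gave 2 or 3 rises and 4 to 6 falls.

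FOXO targets fell in number. Of 21 tested genes 9 fell and 1 rose, against 11.4% and 13.3% of all genes tested, with a median of -0.57. Txnip, an inhibitor of glucose uptake, was at 479 and 528 CPM with TGF-β alone and at 169.7, 88.4, 159 and 103 CPM in the combinations, and fell by 1.94 ± 0.22 (adjusted p = 1.12e-05). Pik3ip1, an inhibitor of PI3-kinase, fell by 1.83 ± 0.28 (adjusted p = 0.000154), Cdkn1b (p27), an inhibitor of cell division, by 1.72 ± 0.33 (adjusted p = 0.00127) and Sesn1, an inhibitor of mTORC1, by 1.15 ± 0.20 (adjusted p = 0.000645). In Txnip, Pik3ip1 and Cdkn1b the libraries labelled replicate 2 were below those labelled replicate 1 at each dose, within the lower group. Cat (catalase), Insr, Il7r, Bcl6 and Bcl2l11 made up the 9, and 8 to 10 fell in the left-out fits. Klf2 was the rise, with the limits given above, and did not pass without either control.

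Cell division genes rose in a larger share than any other of the 24 lists. Of 32 tested mitosis genes 31 rose and none fell, beside 13.3% and 11.4% of all genes tested. Their median log2 fold change was 2.18. All 4 combination libraries were above both controls for 30 of the 32, beside 23.6% of all genes tested. The exceptions were Anln, which overlapped, and Pttg1 (securin), which gave no call and was lower in all 4 (-0.60 ± 0.26, adjusted p = 0.108). Cdc20, which triggers chromosome separation, was at 7.64 and 37.3 CPM with TGF-β alone and at 86.7, 103, 109.9 and 125 CPM in the combinations. It rose by 2.63 ± 0.25 (adjusted p = 2.90e-06), and by 1.49 without the 1 ng/mL control (adjusted p = 0.00253). Ccnb2 (cyclin B2) was at 23.8 and 56.7 CPM with TGF-β alone and at 152, 167, 185 and 179 CPM in the combinations (2.21 ± 0.22, adjusted p = 3.50e-06). Mki67, the proliferation marker Ki-67, was at 17.0 and 42.0 CPM against 118 to 137 CPM (2.23 ± 0.23, adjusted p = 5.41e-06). For these 3 genes the library of 1 ng/mL TGF-β alone was below that of 10 ng/mL, and the combinations of both doses stood at similar levels.

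DNA replication genes rose as well, in 27 of 32 tested (13.3% of all genes tested rose), with none falling and a median of 1.33. Mcm5, a subunit of the replicative helicase, was at 29.7 and 80.8 CPM with TGF-β alone and at 162, 224, 190.4 and 223 CPM in the combinations (2.02 ± 0.23, adjusted p = 1.28e-05; 1.30 without the 1 ng/mL control, adjusted p = 0.00676). Mcm6, another subunit, was nearly equal in the controls, at 155 and 152 CPM, and at 297, 337, 315 and 356 CPM in the combinations (1.09 ± 0.14, adjusted p = 4.40e-05). Rrm2, of deoxynucleotide synthesis, rose by 2.36 ± 0.30 (adjusted p = 3.69e-05; 1.53 without the 1 ng/mL control, adjusted p = 0.0126) and Pcna, the polymerase clamp, by 1.30 ± 0.17 (adjusted p = 4.48e-05). Without the 1 ng/mL control 17 replication genes rose, whereas 28 to 31 mitosis genes rose in the left-out fits.

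Genes of the G1 phase, in which cells decide on division, moved both ways. Ccnd2 (cyclin D2) was at 369.9 and 259.5 CPM with TGF-β alone and between 578 and 728 CPM in the combinations, and rose by 1.08 ± 0.14 (adjusted p = 2.89e-05). The retinoblastoma gene Rb1 fell by 1.26 ± 0.17 (adjusted p = 5.29e-05) from 387 and 407 CPM to between 134 and 197 CPM, and its relative Rbl2 fell by 1.09 ± 0.16 (adjusted p = 0.000113). The division inhibitor Cdkn1a (p21) rose by 0.63 ± 0.12 (adjusted p = 0.000937). The background over all genes tested was 13.3% rising and 11.4% falling. Of 13 tested genes 7 rose (with Ccnd3, Cdk6, Cdkn2b, Cdkn2d and Rbl1) and 3 fell (with Cdkn1b), a median of 0.94; without the 1 ng/mL control 3 rose and 3 fell.

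Promoter sequences of mitosis and replication genes are shown because these lists moved together. They were taken from RefSeq on GRCm38.p6, as windows from 250 bases before to 50 after each transcript start (32851 windows of 27025 genes). Motifs were searched on both strands. TTTGAA or TTCGAA, the cell cycle genes homology region (CHR) bound by the complexes that time mitotic genes, was in 23 of 29 windows of 27 mitosis genes (79.3%) and in 19.2% of all windows. TTTCCCGC or TTTGGCGC, which E2F factors bind, was in 9 of 30 windows of 25 replication genes (30.0%), in none of the mitosis genes and in 1.56% of all windows. CCAAT was in 23 of 29 mitosis windows (79.3%), 21 of 28 windows of sterol and fatty acid synthesis genes (75.0%) and 37.4% of all. TCACNCCAC, a form of the sterol regulatory element, was in 1 of 28 sterol windows, that of Hmgcs1 (3.57%), and in 1.24% of all. Below are the 250 bases before the start, 5′ to 3′ on the gene's strand. A match to the CHR letters is in capitals for Cdc20 (chr4:118437344-118437593, - strand) and Ccnb2 (chr9:70421555-70421804, - strand). Whether it is a working CHR was not tested. The E2F match is in capitals for Mcm5 (chr8:75109259-75109508, + strand) and Mcm6 (chr1:128359706-128359955, - strand), where it occurs on either strand. In Cdc20 the match begins 18 bases before the start and in Ccnb2 167; Mcm6 holds 2 matches. A match is a description of the letters, not evidence of binding.
Cdc20: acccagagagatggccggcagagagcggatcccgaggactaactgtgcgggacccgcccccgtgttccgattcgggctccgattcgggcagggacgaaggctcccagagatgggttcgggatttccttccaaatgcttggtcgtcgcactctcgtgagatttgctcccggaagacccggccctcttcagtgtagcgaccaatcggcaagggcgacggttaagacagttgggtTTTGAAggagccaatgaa
Ccnb2: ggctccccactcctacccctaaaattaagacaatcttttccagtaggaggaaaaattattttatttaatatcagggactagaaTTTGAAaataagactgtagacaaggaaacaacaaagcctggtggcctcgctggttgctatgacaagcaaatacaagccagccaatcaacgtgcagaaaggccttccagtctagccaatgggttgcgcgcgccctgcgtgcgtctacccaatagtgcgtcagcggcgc
Mcm5: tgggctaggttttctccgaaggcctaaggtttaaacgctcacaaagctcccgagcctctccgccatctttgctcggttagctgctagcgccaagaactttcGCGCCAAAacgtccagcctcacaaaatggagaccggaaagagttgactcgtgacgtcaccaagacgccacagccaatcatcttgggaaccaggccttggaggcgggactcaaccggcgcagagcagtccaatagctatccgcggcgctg
Mcm6: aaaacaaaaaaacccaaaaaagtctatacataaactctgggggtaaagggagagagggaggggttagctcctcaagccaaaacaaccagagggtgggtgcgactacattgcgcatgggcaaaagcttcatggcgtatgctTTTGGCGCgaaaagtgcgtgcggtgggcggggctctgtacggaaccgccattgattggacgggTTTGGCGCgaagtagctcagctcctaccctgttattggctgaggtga

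Sterol and fatty acid synthesis followed cell division in size. Of 33 tested genes 26 rose and 2 fell, beside 13.3% and 11.4% of all genes tested, with a median of 1.47. All combination libraries were above both controls for 29 of the 33, beside 23.6% of all genes tested. Fasn, fatty acid synthase, was at 45.0 and 66.1 CPM with TGF-β alone and at 243, 237, 210.0 and 215 CPM in the combinations (2.05 ± 0.16, adjusted p = 2.98e-07). Sqle, squalene epoxidase, was at 37.3 and 47.4 CPM against 153 to 166 CPM (1.91 ± 0.16, adjusted p = 5.36e-07), and Cyp51, a later enzyme of the route, at 35.6 and 31.1 CPM against 129.6 to 152 CPM (2.04 ± 0.18, adjusted p = 1.31e-06). The 2 falls were Acss2, which makes acetyl-CoA from acetate (-1.38 ± 0.15, adjusted p = 7.89e-06), from 473 and 439 CPM to between 144 and 209.6 CPM, and the desaturase Fads1 (-0.69 ± 0.15, adjusted p = 0.00286). Without the 1 ng/mL control 21 rose and 1 fell, and without the 10 ng/mL control 21 and 2.

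Glycolysis and hypoxia genes changed in both directions. Of 25 tested 10 rose and 4 fell, beside 13.3% and 11.4% of all genes tested, with a median of 0.35. The rises were Slc2a3, a glucose transporter, 8 glycolytic enzymes (Hk1, Gpi1, Tpi1, Gapdh, Pgk1, Eno1, Pkm and Ldha) and Ero1l. Pkm, pyruvate kinase, rose by 0.96 ± 0.13 (adjusted p = 6.92e-05) from 234 and 231 CPM to between 391 and 541 CPM, and Ldha, lactate dehydrogenase, by 0.84 ± 0.12 (adjusted p = 0.000124). The falls were Slc2a1, Pfkfb3, Ndrg1 and P4ha1. Ndrg1 (chr15:66929318-66969640, - strand), a gene of differentiation and stress, was at 158 and 104 CPM with TGF-β alone and at 27.4, 20.8, 17.4 and 28.2 CPM in the combinations, a fall of 2.45 ± 0.19 (adjusted p = 2.98e-07). P4ha1, a collagen prolyl hydroxylase, fell by 1.00 ± 0.14 (adjusted p = 8.57e-05).

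Endoplasmic reticulum chaperones rose in 12 of 20 tested genes and fell in 1 (Herpud1), beside 13.3% and 11.4% of all genes tested. The median was 0.52. Calr, calreticulin, was at 184 and 233 CPM against 365 to 551 CPM (1.13 ± 0.15, adjusted p = 4.27e-05), and Sdf2l1, a lumenal chaperone partner, rose by 1.28 ± 0.21 (adjusted p = 0.000255). Hspa5 (BiP), the main chaperone, rose by 0.73 ± 0.12 (adjusted p = 0.000261). Without the 1 ng/mL control 6 rose. In amino acid supply 5 of 15 tested genes rose and none fell (Psat1, Mthfd2, Slc3a2, Slc7a1 and Slc1a5), with a median of 0.50, but 1 to 6 did in the left-out fits, Psat1 alone without the 1 ng/mL control. Ribosome biogenesis gave 3 rises in 28 tested genes, a share below the 13.3% of all genes tested, and no fall, with a median of 0.39: Npm1 (nucleophosmin) rose by 0.67 ± 0.13 (adjusted p = 0.00127), Nop58 by 0.65 ± 0.20 and Bop1 by 0.55 ± 0.18. Without the 1 ng/mL control none of them passed, and left-out fits gave 0 to 5.

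**Figure D4:**
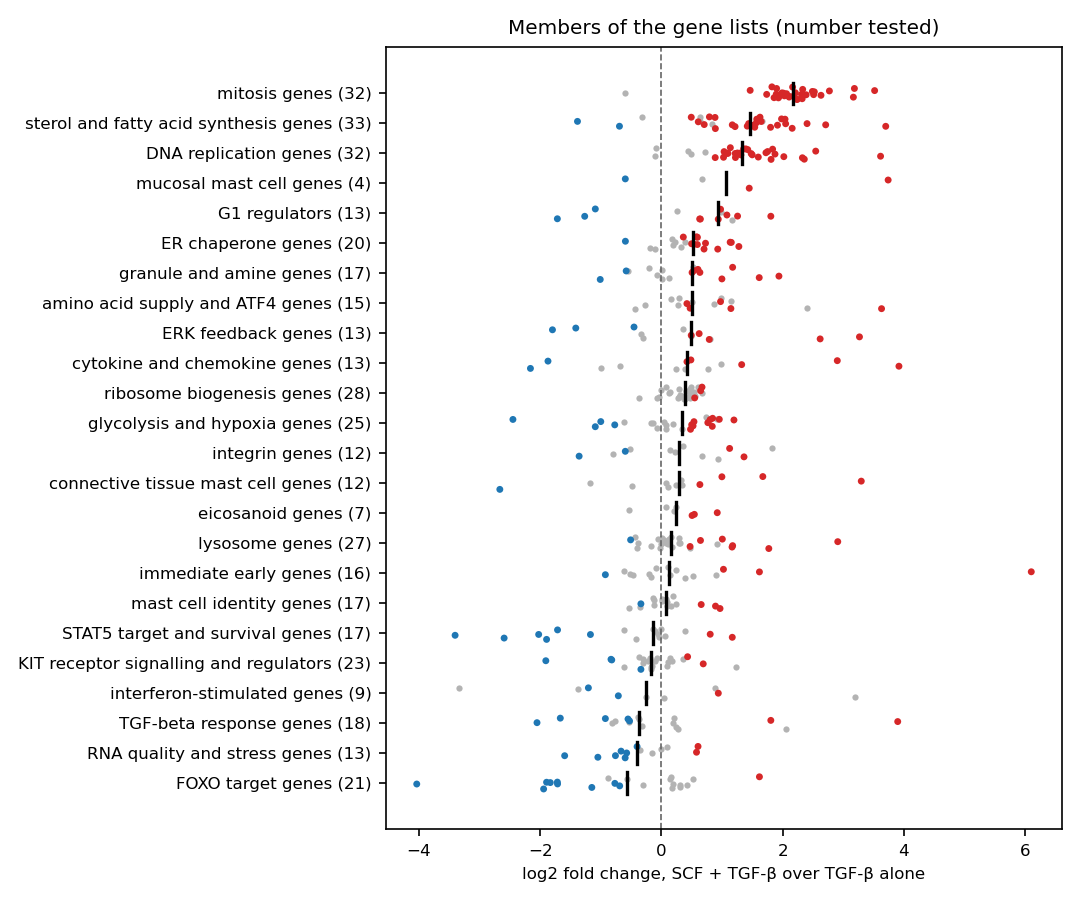
Fitted log2 fold change of SCF with TGF-β over TGF-β alone (horizontal) for the tested members of 24 gene lists (rows, ordered by their median, with the number tested); red points rose, blue points fell, grey points did not pass the test, black bars are medians and the dashed line is the median of all genes tested (-0.01). Medians run from -0.57 for FOXO targets to 2.18 for mitosis genes.

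The granule and amine genes, which make and store histamine, serotonin and proteoglycans, gave 8 rises and 2 falls in 17 tested, a median of 0.51, with 6 to 8 rises and 2 falls in the left-out fits. The background over all genes tested was 13.3% rising and 11.4% falling. Srgn, the serglycin core protein that holds proteases in the granule, was at 1574 and 1731 CPM with TGF-β alone and 2295 to 2706 CPM in the combinations (0.60 ± 0.10, adjusted p = 0.000346). In serotonin synthesis Ddc rose by 1.61 ± 0.20 (adjusted p = 3.14e-05), from 39.0 and 36.5 CPM to between 102 and 123 CPM, and Tph1, the first enzyme, by 0.53 ± 0.10 (adjusted p = 0.000834). Slc18a2, the transporter that loads amines into granules, fell by 0.58 ± 0.11 (adjusted p = 0.000894), and Chst15, a sulfotransferase of chondroitin sulfate E, by 1.01 ± 0.12 (adjusted p = 1.69e-05). Hdc, which makes histamine, gave no call, at 24.6 and 39.6 CPM against 22.6 to 35.3 CPM (-0.20 ± 0.25, adjusted p = 0.594), and its sign turned without the 10 ng/mL control (0.14).

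Lysosomal genes rose in 7 of 27 tested and fell in 1 (Neu1), beside 13.3% and 11.4% of all genes tested. The median was 0.16. Ctsb, cathepsin B, was at 263 and 274 CPM against 574 to 629 CPM (1.18 ± 0.12, adjusted p = 3.71e-06), and Grn, progranulin, at 279 and 203 CPM against 516 to 547 CPM (1.17 ± 0.12, adjusted p = 5.95e-06). Cd68, a lysosomal membrane protein often used to mark macrophages, rose by 2.91 ± 0.44 (adjusted p = 0.000153) from 9.33 and 5.44 CPM to between 35.3 and 73.8 CPM, while Cx3cr1 fell by 2.00 ± 0.20 (adjusted p = 3.66e-06), from 712 and 773 CPM to between 138 and 239.5 CPM. Gla, α-galactosidase, rose by 1.77 ± 0.28 (adjusted p = 0.000194), and Lamp1 and Atp6v1a were also among the 7. Left-out fits gave 5 to 8 rises and 0 to 2 falls. In eicosanoid synthesis 3 of 7 tested genes rose and none fell, a median of 0.24: Ptgs1, the constitutive cyclooxygenase, by 0.92 ± 0.15 (adjusted p = 0.000223), Hpgds, which makes prostaglandin D2, by 0.51 ± 0.15 (adjusted p = 0.0196), and Pla2g4a, which releases arachidonic acid, by 0.54 ± 0.15 (adjusted p = 0.0134). Without the 1 ng/mL control Ptgs1 alone passed.

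Cytokine genes went in both directions, with 5 rises and 2 falls in 13 tested, beside 13.3% and 11.4% of all genes tested. The median was 0.42. After Tnf, the chemokine gene Ccl7 was at 6.79 and 10.1 CPM with TGF-β alone and at 64.4, 68.3, 49.2 and 69.0 CPM in the combinations, 2.90 ± 0.28 higher (adjusted p = 3.22e-06). Il6, Ccl2 and Tgfb1 rose by 0.49 ± 0.16, 0.42 ± 0.13 and 1.32 ± 0.37. Il4, the cytokine of type 2 immunity, was at 41.6 and 24.9 CPM against 6.32 to 8.90 CPM and fell by 2.16 ± 0.28 (adjusted p = 4.68e-05). Csf1, the macrophage growth factor, fell by 1.87 ± 0.32 (adjusted p = 0.000433; 0.106 without the 1 ng/mL control). Left-out fits gave 2 to 6 rises, the fewest without the 10 ng/mL control, and 1 or 2 falls.

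Genes listed as responding to TGF-β did not rise as a group when SCF was added. Of 18 tested 2 rose and 5 fell, beside 13.3% and 11.4% of all genes tested, with a median of -0.38. Id3, an inhibitor of basic helix-loop-helix factors, was at 351 and 467 CPM with TGF-β alone, at 47.2 and 86.1 CPM with SCF at 1 ng/mL and at 328 and 167 CPM with SCF at 10 ng/mL. Every combination library was below both controls, most so at the lower TGF-β dose, and Id3 fell by 1.67 ± 0.24 (adjusted p = 8.57e-05). Id2 fell by 0.52 ± 0.12 (adjusted p = 0.00313), Bambi, a decoy receptor, by 2.05 ± 0.64 (adjusted p = 0.0256), and Junb and Nedd9 by 0.92 ± 0.25 and 0.55 ± 0.15. Smad7, the inhibitory SMAD that TGF-β induces directly, was at 23.8 and 35.7 CPM against 12.2, 11.3, 28.2 and 21.7 CPM and stood at the threshold (-0.76 ± 0.27, adjusted p = 0.0531). It passed in 4 alternatives, limma-voom among them. Cdkn2b, an inhibitor of cell division at 5.09 and 0.777 CPM against 7.06 to 7.60 CPM, was among the rises (1.81 ± 0.64, adjusted p = 0.0485). Left-out fits gave 0 to 2 rises and 3 to 5 falls, 3 without the 10 ng/mL control.

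Among integrin genes 2 of 12 tested rose and 2 fell, a median of 0.29, near the background of 13.3% and 11.4%. Itgb1, the common β1 chain, rose by 1.13 ± 0.19 (adjusted p = 0.000341), from 42.4 and 35.0 CPM to between 75.5 and 97.0 CPM, and Itga5, its fibronectin-binding partner, by 1.36 ± 0.32 (adjusted p = 0.00496; 0.164 without the 1 ng/mL control). Itgax, better known from dendritic cells, fell by 1.36 ± 0.38 (adjusted p = 0.0146; 0.347 without the 10 ng/mL control), and Itgb7 as given above. Of 9 tested interferon-stimulated genes Bst2 rose (0.94 ± 0.22, adjusted p = 0.00456), Usp18 fell (-1.20 ± 0.23, adjusted p = 0.00108) and Irf1 fell (-0.71 ± 0.22, adjusted p = 0.0265), with a median of -0.26; neither fall passed without the 1 ng/mL control.

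Genes read as signs of RNA quality and stress moved with the groups. Of 13 tested 7 fell and 2 rose (the chaperones Hspa8 and Hsp90aa1), beside 11.4% and 13.3% of all genes tested. The median was -0.40. The nuclear RNA Malat1 fell by 0.76 ± 0.10 (adjusted p = 6.88e-05), from 2909 and 2583 CPM to between 1463 and 1717 CPM, and Neat1, Gadd45b and Gadd45g fell too. The mitochondrial transcripts mt-Co1, mt-Cytb and mt-Rnr1 fell by 0.40 ± 0.10, 0.60 ± 0.10 and 0.66 ± 0.14. Left-out fits gave 5 to 7 falls and 1 or 2 rises. The part of RNA quality in the other results was not tested.

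At the separate doses, 1429 genes changed with SCF at 1 ng/mL TGF-β (12.7%; 779 upwards, 6.93%, and 650 downwards, 5.78%) and 983 at 10 ng/mL (8.74%; 554 upwards, 4.93%, and 429 downwards, 3.81%). These comparisons share no library. The 619 genes that changed the same way in both were 43.3% of the former and 63.0% of the latter, and none changed in opposite directions. The balance of directions at 1 ng/mL depended on the tool: DESeq2's Wald test gave 465 upwards and 247 downwards, and limma-voom 533 and 655. Mitosis genes rose in 30 of 32 at 1 ng/mL and 26 of 32 at 10 ng/mL, replication genes in 24 and 13 of 32, and sterol and fatty acid genes in 20 and 15 of 33, with medians of 2.72 against 1.64, 1.56 against 1.05 and 1.71 against 1.08. Each dose was tested against 1 control library, and replicate 2 of SCF with TGF-β weighed on each count: without it 852 genes changed at 1 ng/mL and 475 at 10 ng/mL.

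The difference between the effects of SCF at the 2 TGF-β doses passed the test for 0 of 11247 genes (0.00%), with 584 at an unadjusted p under 0.05. DESeq2 (141 unadjusted) and limma-voom (409 unadjusted) also called 0. The controls of the 2 doses carry different replicate numbers, so that dose and number cannot be told apart in this difference, and a p over the threshold does not show that the effects were alike.

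The effect of SCF without TGF-β, from SCF against IL-3 alone, gave 1031 changed genes (9.17%; 642 upwards, 5.71%, and 389 downwards, 3.46%), with no library in common with the comparison above. Of these, 803 also changed in the same direction when SCF was added to TGF-β, which is 77.9% of the 1031 and 28.9% of the 2780, and 5 changed in the opposite direction. Across the 11247 genes the fitted log2 fold changes had a Pearson correlation of 0.63, given as a description since genes are not independent. Mitosis genes rose in 26 of 32 and sterol and fatty acid genes in 24 of 33 without TGF-β (medians 1.56 and 1.10), FOXO targets fell in 1 of 21 (median -0.36) and STAT5 and survival genes in 4 of 17 (median -0.42).

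The difference between the 2 effects of SCF, with minus without TGF-β, passed the test for 33 genes (0.293%), 13 upwards and 20 downwards, of which 30 had changed when SCF was added to TGF-β. Btg2 (chr1:134075170-134079120, - strand), a gene that restrains division, was at 38.3 and 30.2 CPM (IL-3), 39.0 and 16.4 CPM (SCF), 50.9 and 88.6 CPM with TGF-β alone, and 9.68, 2.97, 15.2 and 5.97 CPM in the combinations. SCF changed it by -0.28 without TGF-β (adjusted p = 0.708) and by -2.95 ± 0.36 with it (adjusted p = 2.03e-05), a difference of -2.67 ± 0.53 (adjusted p = 0.041). Ndrg1 gave -0.53 without and -2.45 with TGF-β, a difference of -1.92 ± 0.27 (adjusted p = 0.00686). Gpx3, a secreted peroxidase, rose by 1.73 without TGF-β (adjusted p = 0.0055). With TGF-β it fell by 0.94 ± 0.30 (adjusted p = 0.0273), a difference of -2.67 ± 0.46 (adjusted p = 0.0212). The call of this fall was lost without the 1 ng/mL control and without replicate 2 of SCF with TGF-β at either dose. It was also lost with DESeq2's Wald test. Upwards, Tnfsf14, the cytokine LIGHT, was at 60.1 and 61.1 CPM (IL-3), 72.1 and 78.2 CPM (SCF), 28.0 and 13.2 CPM with TGF-β alone and 112, 113, 77.3 and 109 CPM in the combinations, a difference of 2.10 ± 0.29 (adjusted p = 0.00686). Tpsb2 rose by 1.07 ± 0.13 without TGF-β (adjusted p = 0.000101) and gave the 0.24 above with it (difference -0.83 ± 0.17, adjusted p = 0.0497). Mcpt1 had 0 counts with IL-3 alone and 1 with SCF alone, and its difference could not be resolved (1.44 ± 5.01, adjusted p = 0.962). For Mcpt2, at 9.85 and 13.3 CPM (IL-3) and 21.0 and 21.4 CPM (SCF), the difference was 0.55 ± 0.41 (adjusted p = 0.73). The 33 calls were fragile: without replicate 1 of IL-3 none of the genes passed, and left-out fits gave 0 to 30, with 3 without the 1 ng/mL control, 9 without replicate 2 of IL-3 or of SCF with 10 ng/mL, 11 without replicate 1 of SCF, 15 without the 10 ng/mL control, and 19 and 17 without replicate 2 of SCF with 1 ng/mL and replicate 1 of SCF with 10 ng/mL.

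**Figure D5:**
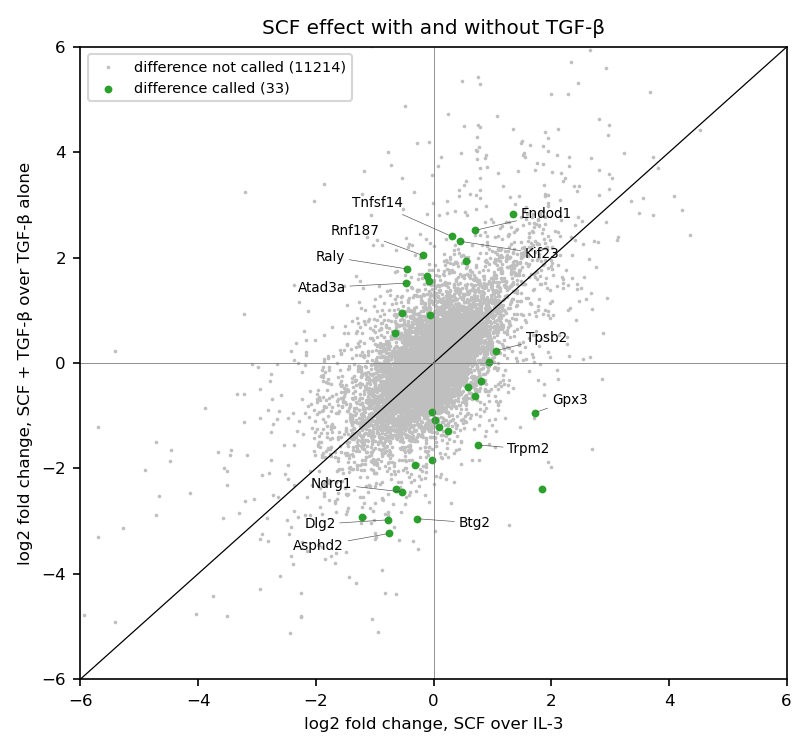
Fitted log2 fold change of SCF over IL-3 (horizontal) and of SCF with TGF-β over TGF-β alone (vertical) for 11247 genes, of which 11 lie outside the axes at ±6; the diagonal marks equal effects and the 33 green points are genes whose 2 effects differed in the test. Btg2, Dlg2, Asphd2 and Ndrg1 lie below the diagonal, and Tnfsf14, Rnf187 and Raly above it.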

How the data were processed

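RNA was sequenced as full-length cDNA libraries (Smart-seq2, paired reads), per the labels' protocols. The deposited table holds raw counts of reads per gene for 10 libraries; STAR, HTSeq, DESeq2 and the mouse build GRCm38 (mm10) are named in the submitters' processing notes. Rows for reads without a gene were dropped; they held 73.4% to 83.6% of counted reads. Genes were filtered by edgeR's filterByExpr, scaled by TMM and fitted with edgeR 4.0.16 (R 4.3.3) as 6 group means over all 10 libraries (4 residual degrees of freedom). Contrasts were tested by quasi-likelihood F-tests, with Benjamini-Hochberg adjustment over the 11247 genes tested. The SE is the absolute log2 fold change divided by the root of F, and CPM are TMM-scaled except for marker sums. The test was checked on simulated counts with the same relative spread for every gene and no differences in library quality. That check does not cover an outlying control library. Alternatives used DESeq2 1.42.0, limma 3.58.1, other filters and left-out libraries.

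The text names 14 marker genes, the 12 largest rises and falls with at least 20 CPM on 1 side and no overlap, up to 4 called genes per list and up to 6 per direction of the difference with and without TGF-β. Other list members named were chosen after their values were seen. The members and lists were chosen with earlier results of these data known. Gene loci come from GENCODE on GRCm38, promoters from RefSeq. Some list members are not reported here.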

Additional observations from a re-analysis of the deposited data

Results flagged for a closer look

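The effect of SCF with and without TGF-β was compared in 1 model, and the difference passed edgeR's quasi-likelihood test with Benjamini-Hochberg adjustment for 33 genes. The differences below are effects with minus without TGF-β, on the log2 scale. Downwards, they were -2.67 for Btg2, -2.67 for Gpx3, -2.48 for Asphd2, -2.31 for Trpm2 (a calcium channel), -2.20 for Dlg2, -1.92 for Ndrg1 and -0.83 for Tpsb2. Upwards, they were 2.23 for Raly, 2.23 for Rnf187, 2.10 for Tnfsf14, 1.98 for Atad3a, 1.86 for Kif23 (a kinesin of cell division) and 1.82 for Endod1. For Trpm2 the effect was 0.76 without TGF-β and -1.56 with it. All 13 of these calls were lost without replicate 1 of IL-3, when 0 genes passed. No group has the 4 libraries that a test for a single outlying library needs.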

How the results depend on the processing

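The 2780 changed genes became 1518 with DESeq2's Wald test, 1340 at a 2-fold threshold and 1278 to 2799 with 1 library left out. At 1 ng/mL the 1429 became 712 with DESeq2 and 852 to 1473 with 1 library left out. At 10 ng/mL the 983 became 457 with DESeq2, 1604 with only the compared groups in the fit and 475 to 1032 with 1 library left out. The 0 genes of the dose difference became 29 without a filter on low counts, 2 with a replicate block and 0 to 1 with 1 library left out. The 33 genes of the difference with and without TGF-β became 125 without a filter (69 upwards and 56 downwards), 102 with a replicate block and 0 to 30 with 1 library left out. The replicate block gave 3282, 1986 and 1270 genes for both doses, 1 ng/mL and 10 ng/mL. Replicate numbers do not pair the libraries of all groups: deviations correlated at -0.01 to 0.02 between IL-3 and the others and at 0.18 to 0.21 among SCF and the combinations. Of 2721 values of single genes under alternatives, 2508 kept direction and side of the threshold, 194 lost and 17 gained the call, and 2 turned sign. Hdc lay between -0.55 and 0.14 with 1 library left out and turned without the 10 ng/mL control. Itgb7 lay between -1.22 and 0.027 and turned without the 1 ng/mL control. In these fits the combinations of both doses were set against the remaining control. The controls at 1 and 10 ng/mL differed, at 24.6 and 39.6 CPM for Hdc and 824 and 348 CPM for Itgb7. Dose and replicate number cannot be told apart in that difference. Leaving out ribosomal RNA and satellite loci was chosen after seeing the data. Depth limits low genes: 3 counts were 1.29 to 2.42 CPM in the 6 libraries.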

Other observations

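Genes of basophils, a relative of mast cells, rose in 2 of 4 tested (13.3% of all genes tested rose), with a median log2 fold change of 0.66. Of the 4 values 3 were above 0, and the lowest was -0.54, without a call. Mcpt8, the basophil protease, was at 1.70 and 6.99 CPM with TGF-β alone and at 11.2 CPM or more in the combinations, 2.31 ± 0.57 higher (adjusted p = 0.00677 in edgeR's quasi-likelihood test with Benjamini-Hochberg adjustment). Cd200r3 rose by 0.44 ± 0.12 (adjusted p = 0.0143). All 4 combination libraries were above both controls in each. Without either control library 1 of the 4 rose.

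Dnajb11, a co-chaperone of the endoplasmic reticulum, was at 77.2 and 80.8 CPM with TGF-β alone and at 173, 192, 156 and 183 CPM in the combinations. It rose by 1.15 ± 0.16 on the log2 scale (adjusted p = 6.53e-05).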
